A study of Homo sapiens with 8 samples.

Results

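The OAS enzymes and the cytosolic RNA sensors are represented by 7 genes: OAS1, OAS2, OAS3, OASL, RIGI (also called DDX58), IFIH1 and DHX58. They were measured in the NS-SV-AC line, immortalised human acinar cells of the salivary gland, after TNF-α at 20 ng/ml or after bovine serum albumin (BSA, the control protein), for 2, 6, 12 or 24 h. Each combination of treatment and time was measured on 1 Affymetrix array, 4 with TNF-α and 4 with BSA, so no time has a replicate and all arrays come from a single cell line. A member was every probe set that the platform annotation gives to 1 of these genes alone, which were 22 of the 45253 probe sets with 1 symbol, for 7 of 18239 genes. Values are log2 expression, and differences are TNF-α minus BSA at the same time.

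OAS enzymes bind double-stranded RNA and make 2′-5′-linked oligoadenylates, small signalling molecules that lead to the cutting of cellular and viral RNA. RIGI encodes RIG-I and IFIH1 encodes MDA5, which bind viral RNA in the cytosol and signal through the mitochondrial adaptor MAVS to the interferon genes, while DHX58 encodes LGP2, a related helicase without the signalling domain. All 7 are classical interferon-stimulated genes, and TNF-α is an inflammatory cytokine that signals largely through NF-κB.

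The promoters are shown because many interferon-stimulated genes carry paired GAAA half-sites ahead of their start. In the RefSeq promoter table for GRCh38.p14, OAS1, OAS3, RIGI and IFIH1 were found (4 of 7), and OAS2, OASL and DHX58 were not. The 250 bases before each gene's start are printed 5′ to 3′ on the gene's strand, with capitals for GAAANNGAAA, the spacing of the interferon-stimulated response element, and GAAANGAAA, a closer spacing added after these promoters were read, on either strand. The windows are chr12:112906712-112906961 (plus strand) for OAS1, chr12:112938224-112938473 (plus) for OAS3, chr9:32526197-32526446 (minus) for RIGI and chr2:162318685-162318934 (minus) for IFIH1.
OAS1: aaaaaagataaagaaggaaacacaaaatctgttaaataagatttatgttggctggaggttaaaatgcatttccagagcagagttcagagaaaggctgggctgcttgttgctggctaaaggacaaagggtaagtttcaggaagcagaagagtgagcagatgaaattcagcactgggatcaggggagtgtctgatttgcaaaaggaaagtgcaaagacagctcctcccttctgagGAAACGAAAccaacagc
OAS3: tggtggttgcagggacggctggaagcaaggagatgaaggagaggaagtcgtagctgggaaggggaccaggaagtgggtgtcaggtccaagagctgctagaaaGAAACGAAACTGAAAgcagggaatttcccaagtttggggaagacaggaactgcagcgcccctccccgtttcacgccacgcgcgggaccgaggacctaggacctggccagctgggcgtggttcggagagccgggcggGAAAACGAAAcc
RIGI: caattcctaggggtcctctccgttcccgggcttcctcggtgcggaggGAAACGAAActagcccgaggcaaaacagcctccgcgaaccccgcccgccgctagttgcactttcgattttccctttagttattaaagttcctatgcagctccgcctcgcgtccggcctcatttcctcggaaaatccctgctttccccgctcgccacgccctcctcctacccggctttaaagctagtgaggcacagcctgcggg
IFIH1: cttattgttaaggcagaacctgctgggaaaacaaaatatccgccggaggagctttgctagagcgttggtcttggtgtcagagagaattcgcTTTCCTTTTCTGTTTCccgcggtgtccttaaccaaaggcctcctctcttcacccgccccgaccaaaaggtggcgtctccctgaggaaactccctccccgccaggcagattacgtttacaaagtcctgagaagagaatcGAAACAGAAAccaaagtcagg

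GAAANNGAAA occurred in 3.02% of 35116 such windows and GAAANGAAA in 2.69%, with either in 5.48%. OAS3 and IFIH1 hold GAAANNGAAA, while OAS1 and RIGI match only by the closer spacing. That spacing was added after these promoters were read, so its share cannot serve as a yardstick for them. OAS1 holds GAAACGAAA 17 to 9 bases before the start. OAS3 holds GAAAACGAAA 12 to 3 bases before the start, and further up GAAACGAAA overlaps GAAACTGAAA. RIGI holds GAAACGAAA 203 to 195 bases before the start, while IFIH1 has GAAACAGAAA 21 to 12 bases before it and, further up, an overlapping pair on the other strand, where the half-site reads TTTC. The 10-base NF-κB consensus, present in 5.21% of windows, matched in OAS3 (in the same stretch on both strands), RIGI and IFIH1 and not in OAS1. These matches describe letters in a window and no binding was measured. In the RefSeq gene table of the same assembly OAS1, OAS3 and OAS2 lie next to each other.

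TNF-α at 24 h stood apart from the other 7 arrays. The gap between the 3′ and 5′ probe sets of GAPDH was 6.28 on it and 0.20 to 0.37 on the others, a usual sign of degraded RNA when wide, and its mean correlation with the other arrays was 0.925, against 0.968 to 0.978 for theirs. For ACTB the same gap was 6.88 on the TNF-α array of 24 h, 3.47 on the BSA array of 24 h and 2.59 to 3.09 on the rest. Every 24 h difference below rests on that TNF-α array and on the BSA array of 24 h. The part of these gaps in the differences was not tested. The median difference over all genes was −0.02, −0.01, −0.00 and 0.20 at 2, 6, 12 and 24 h. Of 5 acinar markers measured, 0 lay above the upper quartile of the BSA arrays (the water channel AQP5 averaged 4.01). Of 7 epithelial markers the keratins KRT8 and KRT18 did, and of 5 fibroblast and endothelial markers COL3A1 and DCN did. Of 5 immune and 3 plasmacytoid dendritic markers 0 did. The epithelial markers EPCAM and CDH1 lay under the lower quartile, with BSA means of 2.89 and 3.35. In RNA from whole cultures, fewer cells of a type and less RNA per cell cannot be told apart.

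After TNF-α no probe set of the 7 genes differed from BSA by more than 0.58 at 2 h. By 12 h each gene had at least 1 probe set at least 2-fold higher. Such a probe set was present for 0, 4, 7 and 7 of the genes over the 4 times. Over the 22 probe sets 0, 7, 13 and 10 were at least 2-fold higher at 2, 6, 12 and 24 h, where 0.389%, 1.18%, 1.11% and 4.64% of all probe sets were. The median difference of the 22 was 0.07, 0.65, 1.61 and 0.66, beside −0.01, −0.00, 0.00 and 0.13 over all probe sets. All 4 differences were above 0 in 14 of the 22 (11.4% of all probe sets). In 16 of the 22 the TNF-α arrays of 6, 12 and 24 h each read above all 4 BSA arrays, which held for 6.36% of all probe sets. Without the 24 h arrays 18 of 22 had TNF-α at 6 and 12 h above the BSA arrays of 2, 6 and 12 h, against 13.0% of all. Fully separate groups, with all 4 TNF-α arrays above all 4 BSA arrays, were found for 3 probe sets (3.10% of all), where the TNF-α array of 2 h exceeded the highest BSA array by small margins, such as 2.75 against 2.74 for an OAS1 probe set.

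**Figure D1:**
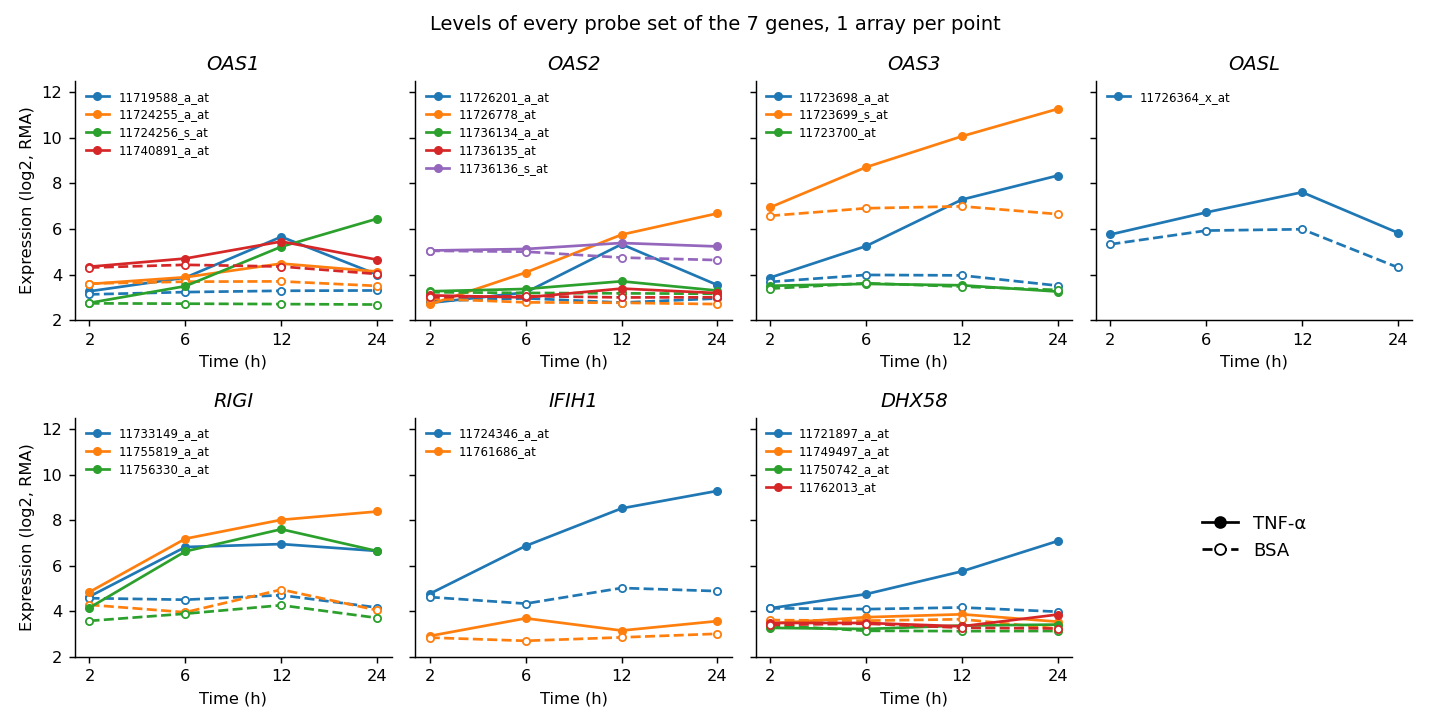
Level of each of the 22 probe sets (log2, y axis) against time (h, x axis, evenly spaced), 1 panel per gene; filled points and solid lines are TNF-α arrays, open points and dashed lines BSA arrays, 1 array per point. At 2 h the differences are at most 0.58, and by 12 h at least 1 probe set of every gene is at least 2-fold higher in TNF-α; the BSA line of OASL reads 4.31 at 24 h.

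OAS1, which makes oligoadenylates, has 4 probe sets, and all were higher with TNF-α at 6, 12 and 24 h. Probe set 11724256_s_at read 2.75, 3.49, 5.22 and 6.45 in TNF-α at 2, 6, 12 and 24 h, against 2.74, 2.72, 2.70 and 2.68 in BSA. Its BSA arrays sit under 3.40, the lower quartile of all probe sets, so this probe set was dim without TNF-α, as was 11719588_a_at. Probe set 11719588_a_at read 3.27, 3.87, 5.66 and 4.0003 in TNF-α and 3.13, 3.23, 3.29 and 3.30 in BSA. Both were similarly higher at 12 h, by 2.52 and 2.37, yet at 24 h they were 3.77 and 0.70 higher. The brightest, 11740891_a_at, read 4.34, 4.70, 5.45 and 4.65 in TNF-α, against 4.31, 4.43, 4.35 and 4.02 in BSA, which leaves every TNF-α array from 6 h on above every BSA array. The remaining probe set, 11724255_a_at, was 0.78 higher at 12 h and 0.63 at 24 h.

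OAS2, the enzyme with a duplicated synthetase unit, showed the same division between its 5 probe sets. In TNF-α 11726778_at read 2.69, 4.09, 5.75 and 6.69, against 2.94, 2.78, 2.76 and 2.70 in BSA. It was lowest of the 8 arrays with TNF-α at 2 h, and 3.99 above BSA on the log2 scale at 24 h. Probe set 11726201_a_at read 2.75, 3.22, 5.33 and 3.54 in TNF-α and 2.84, 2.96, 2.77 and 2.95 in BSA, a difference of 2.56 at 12 h and 0.59 at 24 h. The brightest, 11736136_s_at, differed by at most 0.64, with 5.06, 5.12, 5.39 and 5.23 in TNF-α and 5.04, 5.00, 4.75 and 4.64 in BSA. Its groups do not overlap, although the TNF-α array of 2 h and the BSA array of 2 h are nearly equal. The other 2, 11736134_a_at and 11736135_at, were 0.53 and 0.39 higher at 12 h. All but the brightest were dim in BSA, with means under the lower quartile.

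OAS3, the largest of the synthetases, had the widest differences of the 4 OAS family genes at 24 h. Probe set 11723699_s_at read 6.95, 8.72, 10.07 and 11.28 in TNF-α at 2, 6, 12 and 24 h, against 6.58, 6.91, 6.997 and 6.66 in BSA. Each TNF-α array was higher than the one before it in time, those from 6 h on lay above every BSA array, and the fold was 8.43 at 12 h and 24.6 at 24 h. Probe set 11723698_a_at gave a like course, with 3.86, 5.25, 7.29 and 8.35 in TNF-α and 3.68, 3.98, 3.96 and 3.51 in BSA. By contrast 11723700_at read 3.51, 3.59, 3.53 and 3.25 in TNF-α and 3.38, 3.62, 3.47 and 3.32 in BSA, so on this probe set the treatments overlapped. Where the probes of these sets lie in the transcript was not analysed here.

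OASL, a family member that lacks synthetase activity and is known to bind RIG-I, has a single probe set, of a type in which some probes may also bind other transcripts. It read 5.76, 6.73, 7.62 and 5.83 in TNF-α, against 5.33, 5.93, 5.99 and 4.31 in BSA. TNF-α was higher at all 4 times, by 0.43, 0.80, 1.63 and 1.52. The groups overlap, because the BSA arrays of 6 and 12 h read above the TNF-α arrays of 2 and 24 h; the BSA arrays span 1.68, the widest BSA range of the 22 probe sets.

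RIGI, the sensor of RNA with 5′ triphosphates, was already high at 6 h on all 3 of its probe sets. Probe set 11755819_a_at read 4.85, 7.19, 8.02 and 8.38 in TNF-α, against 4.28, 3.95, 4.95 and 4.04 in BSA, and was 8.36-fold higher at 12 h and 20.2-fold at 24 h. Levels in TNF-α were 4.16, 6.63, 7.60 and 6.64 for 11756330_a_at, against 3.58, 3.89, 4.26 and 3.71 in BSA. For 11733149_a_at they were 4.65, 6.82, 6.95 and 6.65 in TNF-α and 4.57, 4.51, 4.71 and 4.16 in BSA. The 3 probe sets agree in order, with the TNF-α arrays from 6 h on above every BSA array, and differ in course: differences at 6, 12 and 24 h were 3.23, 3.06 and 4.34 for the brightest, 2.74, 3.34 and 2.94 for 11756330_a_at, and 2.32, 2.24 and 2.49 for 11733149_a_at.

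IFIH1, whose product MDA5 senses long double-stranded RNA, read 4.77, 6.87, 8.52 and 9.29 in TNF-α on 11724346_a_at, against 4.62, 4.34, 5.02 and 4.89 in BSA. The treatments nearly coincide at 2 h, and TNF-α was 11.3-fold above BSA at 12 h and 21.1-fold at 24 h. Its other probe set, 11761686_at, is dim, with 2.91, 3.69, 3.15 and 3.57 in TNF-α and 2.84, 2.70, 2.85 and 3.01 in BSA, and its difference was widest at 6 h.

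DHX58, whose product LGP2 modulates the other sensors, differed less at 6 h than RIGI and IFIH1 did. On 11721897_a_at it read 4.13, 4.75, 5.75 and 7.09 in TNF-α, against 4.13, 4.09, 4.17 and 3.98 in BSA. TNF-α and BSA were equal at 2 h, and TNF-α was 0.66, 1.59 and 3.11 higher at the later times, or 8.61-fold at 24 h. The other 3 probe sets of DHX58 were at most 0.25 higher at 12 h and at most 0.61 at 24 h, and TNF-α arrays overlapped BSA arrays on each.

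**Figure D2:**
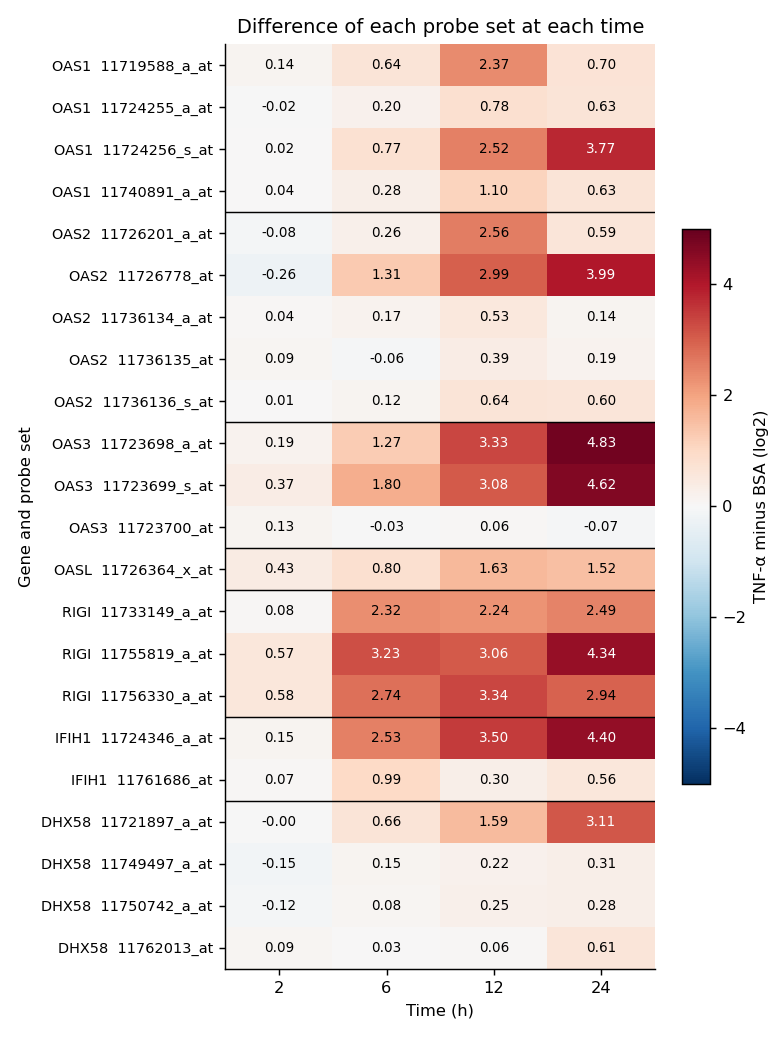
Difference TNF-α minus BSA (log2, colour and printed value) of every probe set (rows, with its gene) at each time (columns, h); each cell is 1 array minus 1 array. At 2 h no value exceeds 0.58, and at 24 h the OAS1 and OAS2 probe sets split into differences of at most 0.70 and differences of 3.77 and 3.99.

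Within OAS1 and OAS2 the probe sets parted at 24 h, on the array with the wide GAPDH gap. At 12 h, 11719588_a_at and 11724256_s_at of OAS1, and 11726201_a_at and 11726778_at of OAS2, all lay 2.37 to 2.99 above BSA. From 12 h to 24 h 11719588_a_at and 11726201_a_at had lower TNF-α readings and their partners higher ones. Neither single time has a replicate, and the share of RNA quality in this was not tested.

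For the tests 1 probe set stood for a gene, the one with the highest mean over the 8 arrays, and limma compared TNF-α with BSA within times. With 1 array per treatment and time, the error is the spread of the difference between times. A response that grows with time therefore widens its own error. In limma each gene's spread is blended with that of all genes, and p-values measure no spread beyond these arrays. Over the 4 times 0 of 7 genes passed an adjusted p of 0.05 in limma, where 0.0164% of all genes passed as higher, and 6 of 7 had an unadjusted p under 0.05, against 4.12% of all genes on the higher side. All but DHX58, which was level at 2 h, were higher in 4 of 4 pairs, as were 12.6% of all genes. OASL was 1.09 ± 0.23 higher (SE, 4 pairs of arrays, adjusted p = 0.550 in limma), RIGI 2.80 ± 0.61 (0.569), IFIH1 2.65 ± 0.70 (0.609) and OAS3 2.47 ± 0.69 (0.643). For DHX58, OAS1 and OAS2 the estimates were 1.34 ± 0.51, 0.51 ± 0.19 and 0.34 ± 0.14 (0.652 each). The choice of probe set matters here: at 12 h the brightest gave 1.10 for OAS1, 0.64 for OAS2, 3.50 for IFIH1 and 1.59 for DHX58, where the mean of probe sets gave 1.69, 1.42, 1.90 and 0.53. Without the 24 h arrays 0 of 7 passed (0.318% of all genes did, as higher) and 5 of 7 had an unadjusted p under 0.05, against 4.89%; adjusted p ranged between 0.204 for RIGI and 0.452 for OAS2.

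At 6 and 12 h, where the GAPDH gaps of all 4 arrays lay within 0.20 to 0.37, 5 of the 7 genes rose. This fit of 2 pairs was singled out after the data were seen and has 1 residual degree of freedom. Another 7.40 degrees of freedom came from the spread of all genes, so its errors and p-values rest mostly on other genes. The differences at 6 and 12 h were 1.80 and 3.08 for OAS3, and 2.53 and 3.50 for IFIH1. RIGI rose by 3.15 ± 0.11 (SE, adjusted p = 2.15e-06 in limma), IFIH1 by 3.02 ± 0.20 (6.38e-05) and OAS3 by 2.44 ± 0.25 (0.000756). OASL rose by 1.21 ± 0.18 (0.00578) and DHX58 by 1.12 ± 0.19 (0.0118). OAS1 was 0.69 ± 0.18 higher (0.0660) and OAS2 0.38 ± 0.14 (0.199), neither past the threshold. All 7 had an unadjusted p under 0.05, against 6.67% of all genes on the higher side. In the same fit 2.79% of all genes rose and 3.21% fell. As the mean of its 4 probe sets DHX58 was 0.38 higher and no longer passed (adjusted p = 0.126), and with dim genes left out OAS1 passed (0.0228). Among the 22 probe sets 9 rose, against 2.00% of all: all 3 of RIGI, 2 of OAS3, and 1 each of OAS2, OASL, IFIH1 and DHX58. The OAS2 probe set was 11726778_at, 2.15 ± 0.34 higher (adjusted p = 0.0230).

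**Figure D3:**
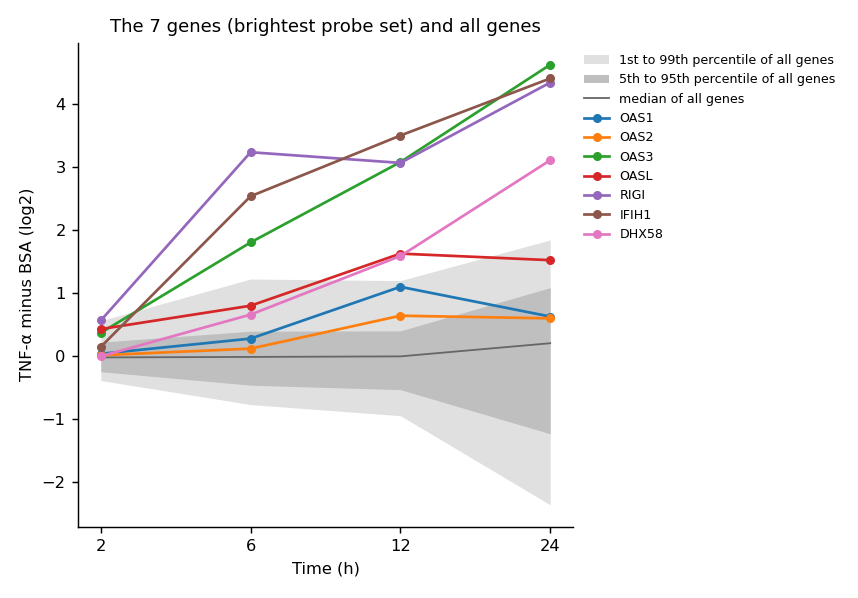
Difference TNF-α minus BSA (log2, y axis) of the brightest probe set of each gene (coloured lines) at 2, 6, 12 and 24 h (x axis), with grey bands for the percentile ranges of all 18239 genes named in the legend and a grey line for their median. At 12 h all 7 lie above the inner band; at 24 h the bands widen and OAS1 and OAS2 lie inside the inner one.

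Relative to all genes, the differences of the 7 at 12 h ranked between the 97.6th percentile for OAS2 and the 99.9th for IFIH1. At 2 h RIGI, OASL and OAS3 were at the 99.0th, 98.5th and 98.1st percentile, and IFIH1 at the 89.5th. OAS1, OAS2 and DHX58 were then at the 68.6th, 61.6th and 56.4th. At 24 h OAS2 and OAS1 were at the 82.9th and 84.2nd percentile, and the other 5 at the 98.2nd or above.

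Did the difference grow with time? In OAS3, IFIH1 and DHX58, by their brightest probe set, it was larger at each later time, as in 10.3% of all genes; of the 22 probe sets 8 did so, against 9.11% of all probe sets. Without the 24 h arrays 16 of 22 did so, against 18.4% of all probe sets. A limma model with treatment, time as log2 hours, and the product of both gave a growth per doubling of time of 1.18 ± 0.09 for OAS3 (SE, 8 arrays, adjusted p = 0.367) and 1.19 ± 0.14 for IFIH1 (0.583). Their p ranked 1 and 5 among 18239 genes, and 5 and 29 without the 24 h arrays. Growth was 0.84 ± 0.15 for DHX58 and 0.98 ± 0.24 for RIGI. On the brightest RIGI probe set the difference at 6 h already exceeded that at 12 h, while on 11756330_a_at it did not (2.74 and 3.34). Growth was 0.35 ± 0.43 for OASL, 0.22 ± 0.17 for OAS1 and 0.19 ± 0.07 for OAS2. After adjustment 0 of 7 passed, as did 0.00% of all genes, and 5 of 7 had an unadjusted p under 0.05, against 2.71% of all genes with growth. Without the 24 h arrays the estimates were 1.03 ± 0.08 for OAS3 and 1.32 ± 0.18 for IFIH1, 0 of 7 passed, and 6 of 7 had an unadjusted p under 0.05, against 1.50%.

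**Figure D4:**
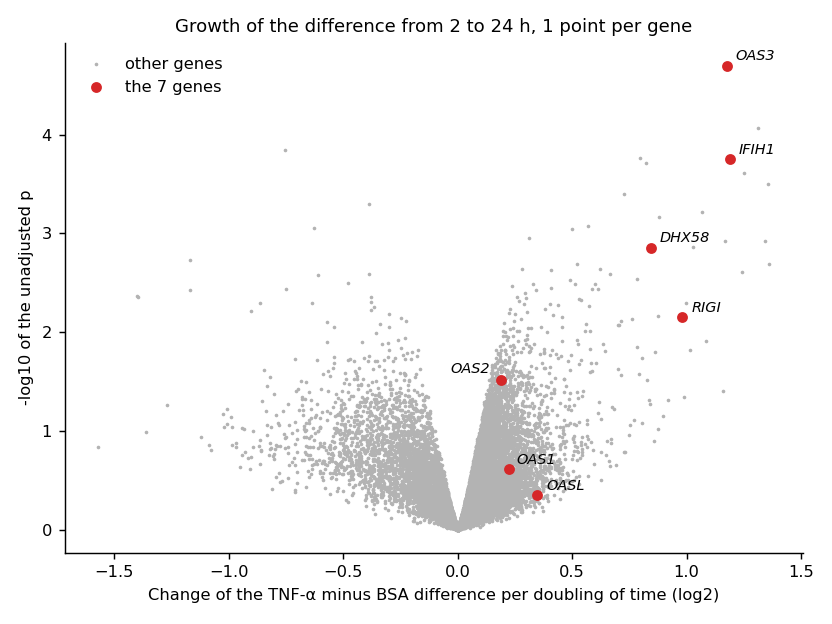
Change of the TNF-α minus BSA difference per doubling of time (log2, x axis) against minus log10 of the unadjusted limma p (y axis), 1 point per gene over 8 arrays; red points are the 7 genes. OAS3 is the topmost point and IFIH1, DHX58 and RIGI lie to the upper right, while OAS1 and OASL sit among the bulk; no gene passed after adjustment.

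The rest of the pathway is described by 6 gene lists, by the brightest probe set, beside medians over all genes of −0.02, −0.01, −0.00 and 0.20 at 2, 6, 12 and 24 h and the 7 genes' own 0.15, 0.80, 1.63 and 3.11. Over the 4 times 0 of their 65 genes passed in limma, and over 2, 6 and 12 h only IRF1 did. Over the 4 times 28 of the 65 had an unadjusted p under 0.05 in either direction, beside 1369 of all 18239 genes. The counts that follow are from the fit of 6 and 12 h, in which 2.79% of all genes rose and 3.21% fell.

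Genes that carry or tune the signal of RIG-I and MDA5 showed a mixed picture: of 19 measured, 5 rose and 1 fell, with medians of −0.06, 0.12, 0.05 and 0.50. TRIM25, the ubiquitin ligase that activates RIG-I, rose by 1.29 ± 0.13 (adjusted p = 0.000686 in limma), and the kinase IKBKE, which phosphorylates IRF3, by 1.26 ± 0.11. The helicase DDX60 rose by 1.06 ± 0.11 and the adaptors TRAF3 and TANK by 0.90 ± 0.14 and 0.57 ± 0.11. MAVS, the adaptor itself, fell by 0.48 ± 0.11 (0.0461) on the brightest of 7 probe sets, and as the mean of the 7 it was −0.12 at 12 h. IRF3, the factor that the pathway activates by phosphorylation, differed by −0.13, −0.13, 0.07 and −0.27, and IRF7 by −0.06, 0.12, 0.92 and 0.92, neither past the threshold. TRIM25 was 1.11 higher at 12 h by the brightest probe set and 0.68 by the mean of its 2.

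Downstream of the OAS enzymes, the list held the ribosome recycling factor ABCE1 and PDE12, which degrades oligoadenylates. ABCE1 differed by 0.16, 0.23, −0.05 and 0.17 and PDE12 by 0.01, −0.09, −0.29 and 0.56. In limma 0 of 2 passed, with 0 at an unadjusted p under 0.05. At 24 h the mean of 5 probe sets gave −0.93 for ABCE1, and the mean of 3 gave 0.19 for PDE12. Among 12 other nucleic acid sensors and double-stranded RNA binders 4 rose, with medians of −0.01, 0.20, 0.18 and 0.29. They were the DNA sensor IFI16 (1.31 ± 0.18), the adaptor TICAM1 (0.62 ± 0.12), the RNA-editing enzyme ADAR (0.54 ± 0.13) and the kinase EIF2AK2, or PKR (0.53 ± 0.12). TLR3, the endosomal sensor of double-stranded RNA, read 3.04, 3.03, 3.18 and 5.09 in TNF-α and 3.12, 2.95, 3.23 and 3.14 in BSA, so TNF-α stood clear of BSA at 24 h alone.

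The interferons themselves were dim on every array. IFNB1 read 3.22, 3.22, 3.24 and 3.19 in TNF-α and 3.07, 3.13, 3.02 and 3.10 in BSA, and IFNL1 3.12, 2.996, 3.002 and 3.17 in TNF-α and 2.95, 3.15, 2.96 and 2.88 in BSA. With IFNE and IFNK, 0 of 4 passed in limma, with 0 at an unadjusted p under 0.05, and the list's medians were 0.08, 0.00, 0.05 and 0.15. IFNB1 in TNF-α lay above every BSA array by a small margin at all times, under the lower quartile of all probe sets; IFNA1, IFNL2 and IFNL3 were not analysed here.

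Receptors, Janus kinases and factors downstream of interferon gave 5 rises among 8 measured, with medians of −0.02, 0.42, 0.58 and −0.26. IRF9, the DNA-binding subunit of the interferon-activated complex ISGF3, read 4.94, 8.12, 8.43 and 8.62 in TNF-α and 5.08, 5.19, 5.26 and 4.77 in BSA. Like IFIH1 it was nearly level with BSA at 2 h and high from 6 h, and it rose by 3.05 ± 0.12. IRF1, a factor known to be induced by NF-κB, came earlier, with 9.85, 9.51, 8.32 and 6.72 in TNF-α and 7.24, 6.96, 6.16 and 6.91 in BSA, and rose by 2.36 ± 0.13. The receptor chains IFNAR1 and IFNAR2 rose by 0.63 ± 0.11 and 0.59 ± 0.13 and JAK1 by 0.53 ± 0.11. At 12 h the mean of 4 probe sets gave 2.11 for IRF9 and 1.40 for IRF1, where the brightest gave 3.17 and 2.16.

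Of 20 other interferon-stimulated effectors 15 rose and 0 fell, with medians of 0.03, 1.02, 1.60 and 2.51. At least 2-fold higher were 0, 10, 17 and 17 of them at 2, 6, 12 and 24 h, beside 0.493%, 1.38%, 1.29% and 6.10% of all genes. Largest were the rises of the apoptosis-associated XAF1 (2.92 ± 0.12), the antiviral GTPase MX1 (2.85 ± 0.31), the nucleotide kinase CMPK2 (2.78 ± 0.24) and the RNA-binding IFIT3 (2.41 ± 0.20). For CMPK2 the mean of 3 probe sets was 1.28 higher at 12 h, where the brightest was 3.38 higher.

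**Figure D5:**
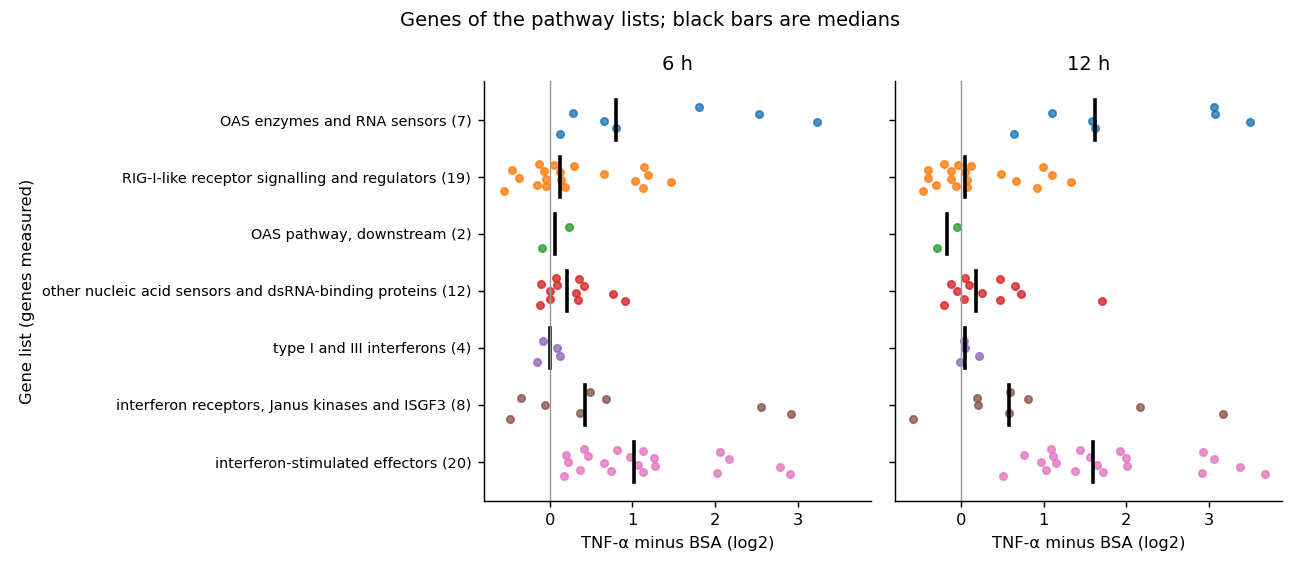
Difference TNF-α minus BSA (log2, x axis) at 6 h (left) and 12 h (right) for each gene (points, brightest probe set) of the 7 OAS and RNA sensor genes and of 6 related lists (rows, genes measured in brackets), with black bars at the medians. The medians of the 7 genes (0.80 and 1.63) and of the effectors (1.02 and 1.60) lie to the right, while the interferons cluster near 0.

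Genes with the most similar course were sought among 1657 others whose level spans at least 2 log2 units, by Pearson's correlation over the 8 arrays with the mean of the 7 centred genes; the arrays share treatment and time, so these are descriptions. The highest were the cation transporter SLC22A4 (r = 0.995), the ADP-ribosyltransferase PARP14 (0.994), the hyaluronan receptor CD44 (0.991), complement C3 (0.988) and the antiprotease SERPINA1 (0.988). FGD6 (0.987), NMI (0.985), CMPK2 (0.982), the chemokine CXCL11 (0.982) and PARP9 (0.979) followed. Without the 24 h arrays 4 of these 10 (CD44, FGD6, SLC22A4 and PARP14) were again among the top 10, with PLSCR1, S1PR3 and PI3 ahead. Among the 7 themselves, RIGI, OAS3 and IFIH1 correlated with the mean they enter at 0.987, 0.983 and 0.983, DHX58 at 0.930, OAS1 and OAS2 at 0.827 and 0.803, and OASL at 0.695.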

How the data were processed

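The authors deposited 1 log2 value per probe set and array, made with RMA (background correction, quantile normalisation between arrays and summary of probes) per the submitters' processing notes; its version is not given in the sources used here. Labelling was by 3′ in vitro transcription from total RNA, per the labels' protocols, a method that copies RNA starting at its 3′ end. From these values, without further normalisation or filter, differences between the TNF-α and BSA arrays of each time were taken, and two-sided tests with lmFit and eBayes of limma 3.58.1 (R 4.3.3) were fitted to all genes or probe sets with treatment and time as factors, or treatment, log2 hours and their product. Adjustment was by Benjamini-Hochberg over all features tested, with 0.05 as threshold; fits were tested on simulated data. Arrays give no read depth, and their number (8) limits precision. Probe sets were named by the platform annotation; those with several or no symbols and controls were left out. Named genes are the 7 members, a fixed set of pathway genes, list genes that passed or had the largest differences, and the 10 most similar genes. The members, lists, models and alternatives were chosen with earlier results of these data known. Alternatives were the mean of probe sets, centring, quantile normalisation again, a filter on dim genes, array weights, an intensity trend and leaving out each time.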

Additional observations from a re-analysis of the deposited data

How the results depend on the processing

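Over the 4 times the count of all genes passing was 3, and it was 1 with the mean of probe sets, 62 with array quality weights, 5 with an intensity trend, and 0 to 67 when 1 time was left out (67 without 24 h). For all probe sets it was 2, against 4 with dim ones left out, 32 with weights, 5 with the trend, and 0 to 98 when 1 time was left out (98 without 24 h). Over 2, 6 and 12 h it was 67 genes, against 36 with the mean of probe sets, 160 with the trend, and 0 to 1094 when 1 more time was left out (0 without 6 h, 1094 without 2 h); the OAS and sensor genes passing were then 0 to 5, where the 5 come without the 2 h pair, which is the fit of 6 and 12 h. That fit called 1094 genes, 630 with the mean of probe sets and 1678 with the trend. Of the 7 genes OAS1 also passed with the trend and with dim genes left out, and DHX58 did not pass with the mean of probe sets. Over the 6 settings of that fit the adjusted p of OAS1 in limma ranged from 1.95e-05 to 0.131. The 7 genes were higher over the 4 times under all 11 settings, with adjusted p between 0.157 for RIGI and 0.799. Growth with time from 2 to 12 h gave 0 genes, and 2 with the trend; leaving out a further time leaves no residual degrees of freedom and was not run. The OAS3 probe set 11723700_at, 0.02 higher over the 4 times, was -0.033 after quantile normalisation again and spanned -0.015 to 0.051 when 1 time was left out. The fits of TNF-α against BSA within times already pair the arrays by time; the labels carry no replicate numbers, so no replicate block was added. The causes were not tested. The limits are 1 array per treatment and time, 1 cell line, a TNF-α array at 24 h with a wide 3′ to 5′ gap, and 9 of 22 probe sets whose BSA mean lies under the lower quartile.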
